A study of Rattus norvegicus with 9 samples.

Results

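The myosin heavy chain genes examined here are the 10 members Myh1, Myh2, Myh3, Myh4, Myh6, Myh7, Myh8, Myh9, Myh10 and Myh11, out of 36856 rat genes in the deposited quantifications. The family was chosen by measured values, namely those of Myh1, which differed when cells given energized structured water were compared with either other group, so the values of those 2 comparisons are given for the members as a description, and the number of members called in them is given once, beside the share of all genes, and supports nothing. The comparison of control water with untreated cells was not used to choose the family, although its libraries also enter the other 2 comparisons. The cells were H9c2(2-1), a clonal myoblast line of wild-type genotype from embryonic BD1X rat heart, grown in DMEM with 10% fetal bovine serum. Control cells (3 libraries) received normal medium and no treatment. ESW cells (3 libraries) received energized structured water, written "Eneried structured water" in the labels, and CW cells (3 libraries) received control water. For 72 h the medium held 1 of the waters diluted to 0.01, and it was renewed every 24 h. The labels do not say if a group's libraries stem from separate cultures, and p-values therefore measure the spread between these libraries, which may be technical.

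Class II myosins are the motors that slide actin filaments, and each motor is built from a pair of heavy chains, which hold the ATPase head and the coiled-coil tail, with light chains bound at the neck. The sarcomeric heavy chains differ by muscle and stage: Myh3 encodes the embryonic and Myh8 the perinatal skeletal chain, Myh2, Myh1 and Myh4 the adult fast chains IIa, IIx and IIb, Myh7 the slow skeletal and beta cardiac chain and Myh6 the alpha cardiac chain. Myh11 encodes the smooth muscle chain, while Myh9 and Myh10 encode non-muscle chains IIA and IIB, which work in the cortex, stress fibres and cytokinetic ring of most cells. Skeletal myoblasts rely mainly on the non-muscle chains and switch on the sarcomeric genes when they fuse into myotubes.

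Library totals ranged from 26748673 to 48574618 estimated reads. CPM gives reads relative to the library's total after TMM scaling, edgeR's adjustment between libraries. The first principal component of log2 CPM held 24.1% of the variance. On it Control replicate 1 lay at -10.9, inside the ESW range of -28.7 to -8.79. The other 2 Control libraries lay at 7.08 and 12.3. Markers bore out the myoblast label in part. The myogenic factors Myod1 (8.64 ± 0.480 TPM in Control, SD, n = 3) and Myog (3.60 ± 0.793 TPM) were present, Myf5 was listed at 0 in every Control and ESW library, and the intermediate filament gene Des stood at 4.55 ± 0.639 TPM. TPM scales each library's transcripts to the same total and is a level per transcript length that allows genes to be compared with each other. The 6 heart markers summed to 1.18 to 2.97 TPM over the 9 libraries, most of it Tnni3, and Myl2, Myl7 and Nppa were listed at 0 in all 3 ESW libraries. In bulk RNA, a change in the number of cells that express a gene and a change in RNA per cell cannot be told apart.

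The non-muscle chains made up most of the family's RNA in every library. Myh9 and Myh10 together held 97.9% to 98.5% of the summed TPM of the 10 genes, the skeletal chains 0.874% to 1.35%, Myh11 0.630% to 0.718% and the cardiac chains 0.00195% to 0.0237%. In Control cells the level was 1019 ± 50.6 TPM for Myh9 (SD, n = 3), 75.1 ± 2.22 for Myh10, 9.79 ± 0.491 for Myh1 and 7.37 ± 0.294 for Myh11. By mean TPM over the 9 libraries Myh9 ranked 150th, Myh10 1945th, Myh1 7399th and Myh11 8676th of the 24474 genes with a TPM above 0. No library of one of these 4 genes overlapped the next gene in the order within any group, and there was a wide step from Myh11 down to Myh3, at 0.224 ± 0.0252 TPM in Control. Lower in the order neighbours did overlap: Myh3 and Myh2 in ESW, Myh2 and Myh7 in Control and CW, Myh7 and Myh6 in CW, and Myh6 and Myh8 in all 3 groups, and Myh8 and Myh4 in Control. Myh1 was thus the only sarcomeric chain above 1 TPM, and its level was 29.4 to 55.1 times that of the embryonic gene Myh3 in the same library.

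**Figure D1:**
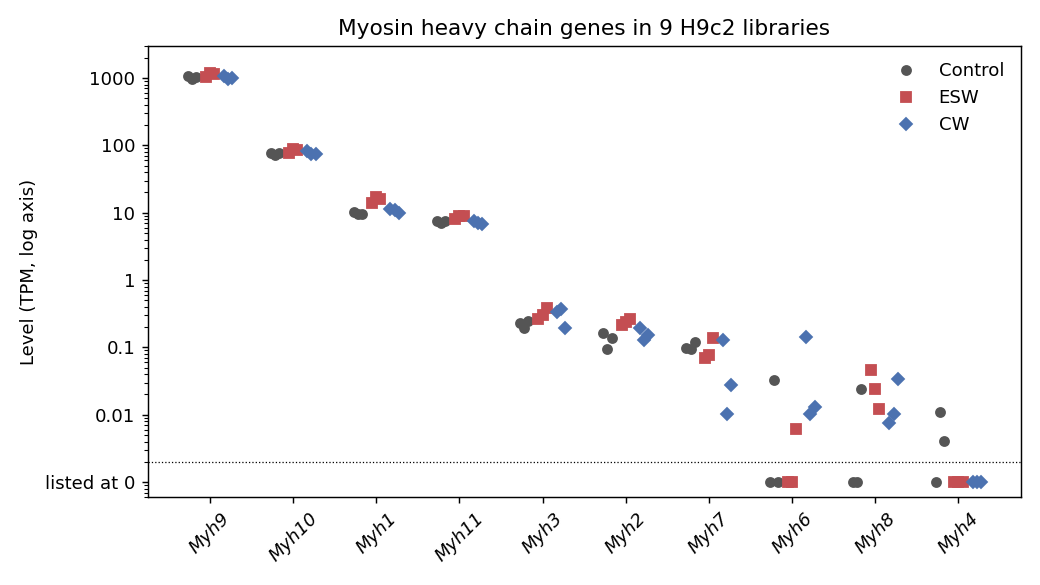
Level of each myosin heavy chain gene in TPM on a log axis, 1 point per library, coloured by group; points under the dotted line are libraries in which the gene is listed at 0. Myh9 lies between 962 and 1185 TPM, Myh1 between 9.46 and 17.0, and no other sarcomeric gene above 0.391.

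Of the skeletal chains, Myh1 carried 95.4% to 96.9% of the reads in each library. Within 1 gene, levels are compared between libraries in CPM, the reads relative to the library's total after TMM scaling. Myh1 read 50.4, 46.9 and 46.7 CPM in Control, 66.3, 80.2 and 76.1 CPM in ESW, and 55.3, 53.2 and 48.7 CPM in CW. All 3 ESW libraries lay above every library of the other groups, while CW and Control overlapped. The fitted difference was 0.63 on the log2 scale (SE 0.06, 1.55-fold) for ESW over Control and 0.51 (SE 0.06, 1.42-fold) for ESW over CW.

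Myh2, the fast IIa chain, is the neighbour of Myh1 on chromosome 10 and was expressed at a small fraction of its level. It read 0.815, 0.461 and 0.693 CPM in Control, 1.07, 1.19 and 1.31 CPM in ESW, and 0.964, 0.647 and 0.795 CPM in CW, from 17 to 50 reads per library. Here too the ESW libraries lay above all others. The fitted differences were 0.85 (SE 0.30) against Control and 0.58 (SE 0.31) against CW on the log2 scale.

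The developmental skeletal chains showed no such separation from both groups. Myh3, the embryonic chain, read 1.12, 0.976 and 1.22 CPM in Control, 1.27, 1.49 and 1.89 CPM in ESW, and 1.63, 1.86 and 0.966 CPM in CW. ESW lay above Control, but the CW libraries were spread across both groups, from below the lowest Control library to just under the highest ESW library. Its log2 difference was 0.48 (SE 0.26) for ESW over Control and 0.06 (SE 0.26) for ESW over CW, and the latter turned to -0.11 without ESW replicate 3 and to -0.18 without CW replicate 3. Myh8, the perinatal chain, had 0, 0 and 6 reads in Control, 8, 5 and 2 in ESW, and 1, 2 and 6 in CW, and was too low to be tested. Myh4, the fast IIb chain, had 2 reads in Control replicate 2 and 1 read in Control replicate 3, and was listed at 0 in the other 7 libraries. A count of 0 allows up to 3 reads, or 0.0618 to 0.112 CPM in these libraries without TMM scaling, counting error only.

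**Figure D2:**
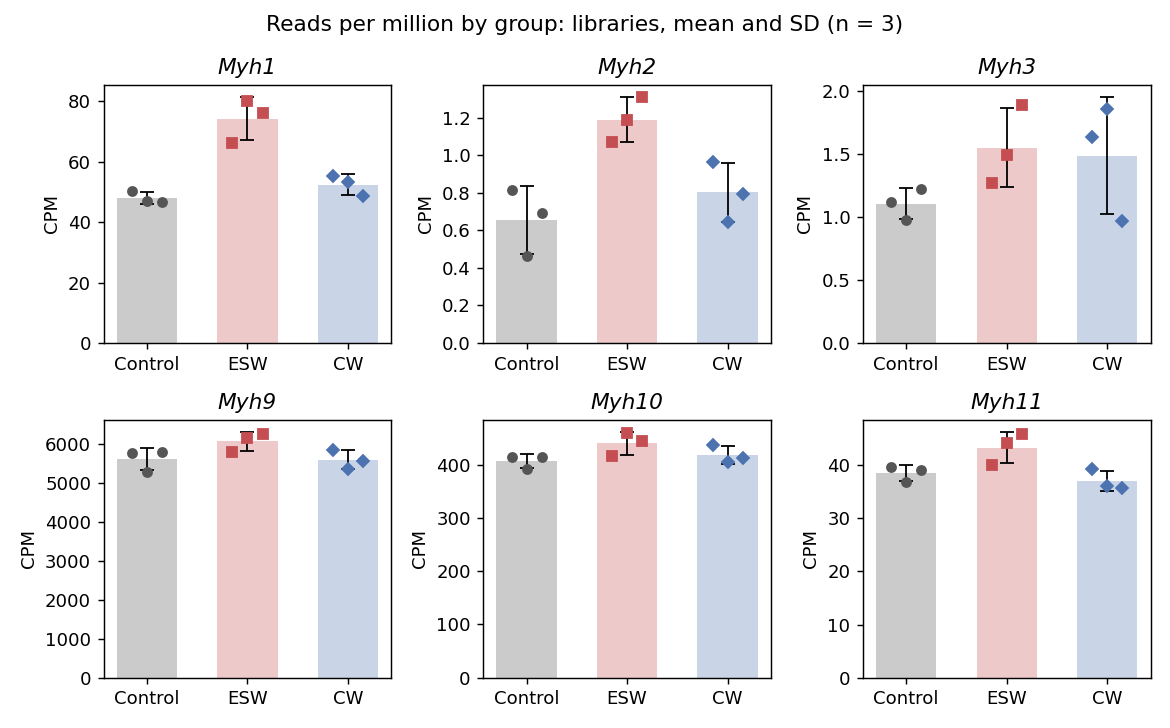
CPM of 6 myosin heavy chain genes by group; points are libraries, bars are means and error bars 1 SD (n = 3), each axis starting at 0. Myh1 and Myh2 are higher in every ESW library than in any other library, Myh3 is spread widely in CW, and Myh9, Myh10 and Myh11 show smaller steps between group means than Myh1, with the Myh11 ESW libraries above all others.

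The 3 adult fast genes lie side by side on chromosome 10, in the order Myh3, Myh2, Myh1, Myh4, Myh8, and share promoter sequence although their levels differ widely here. The sequences below are shown because they hold the longest run common to the promoter windows of all 3 (20 bases, in capitals); each is 148 bases on the + strand, 5′ to 3′, from RefSeq on the build GRCr8. The windows are chr10:52384662-52384809 for Myh1, chr10:52355489-52355636 for Myh2 and chr10:52421898-52422045 for Myh4.
Myh1: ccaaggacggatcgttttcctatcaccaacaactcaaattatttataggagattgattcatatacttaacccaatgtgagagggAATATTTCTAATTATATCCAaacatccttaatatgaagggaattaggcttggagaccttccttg
Myh2: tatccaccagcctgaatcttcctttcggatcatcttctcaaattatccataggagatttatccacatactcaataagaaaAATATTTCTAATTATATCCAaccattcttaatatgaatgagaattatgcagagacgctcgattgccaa
Myh4: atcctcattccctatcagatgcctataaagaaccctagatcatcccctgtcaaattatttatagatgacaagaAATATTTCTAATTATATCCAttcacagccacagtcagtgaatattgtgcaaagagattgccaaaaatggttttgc
The run occurred in 5 of 33469 promoter entries (0.0149%): those of Myh1, Myh2 and Myh4, and 2 entries of LOC102555216, a lncRNA on the opposite strand whose windows overlap that of Myh4. It ended 146 bases before the annotated start of Myh1 used in the promoter table, 150 before that of Myh2 and 157 before that of Myh4. The first annotated start of Myh1 lies 102 bases upstream of the start in the table, at the end of the window shown, and the tables used here do not record which of its 2 transcripts begins there.

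Motifs were searched on both strands of the 250 bases before each start, except for Myh11, which had no promoter entry. TATAAA was found in Myh1 (2 matches), Myh2 (1), Myh3 (1), Myh4 (3) and 1 of the 2 entries of the non-muscle gene Myh9 (1), and in 12.9% of all promoter entries. The match nearest the start lay 33 to 28 bases before the start in Myh1, 30 to 25 in Myh2 and in Myh3, 45 to 40 in Myh4 and 179 to 174 in Myh9. The E-box CANNTG, the core bound by myogenic factors such as MyoD, was in 65.5% of entries. It had 0 matches in Myh1, Myh2 and Myh8, 1 in Myh3 and Myh6, 2 in Myh4 and Myh10, and 3 in Myh7. In Myh9 the entry with TATAAA held 1 match and the other entry 2. A MEF2 site matched once each in Myh1 (212 to 203 bases before the start), Myh4 (196 to 187) and the same entry of Myh9 (182 to 173), in each case over a TATAAA match; 1.68% of entries held one. A CArG box, the element bound by serum response factor, matched once in Myh4 and in 1.5% of entries. No motif match overlapped the shared run. A match describes letters in this window and says nothing about binding in these cells.

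Myh1 has 2 transcripts in the quantification, of 6031 and 6127 bases, and their groups separated differently. The 6127-base transcript read 19.3, 16.4 and 26.8 CPM in Control, 43.6, 52.3 and 41.9 CPM in ESW, and 23.6, 31.3 and 30.6 CPM in CW. Every ESW library was above every other library. The 6031-base transcript read 31.1, 30.5 and 19.9 CPM in Control, 22.8, 28.0 and 34.2 CPM in ESW, and 31.8, 21.9 and 18.1 CPM in CW, and the 3 groups overlapped. Its mean was 27.2 ± 6.30, 28.3 ± 5.70 and 23.9 ± 7.05 CPM (SD, n = 3) in the same order, while that of the 6127-base transcript was 20.8 ± 5.38, 45.9 ± 5.55 and 28.5 ± 4.26 CPM. Salmon divides reads between the 2 transcripts by estimation, the deposited tables hold no error for that division, and the transcript values were not tested. Nor was the division between Myh1 and similar chains checked: all reads of Myh2, Myh3, Myh4 and Myh8 came to 3.08% to 4.59% of the skeletal chain reads, and the sum of the 5 skeletal genes differed by 0.63 for ESW over Control and 0.50 for ESW over CW on the log2 scale.

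**Figure D3:**
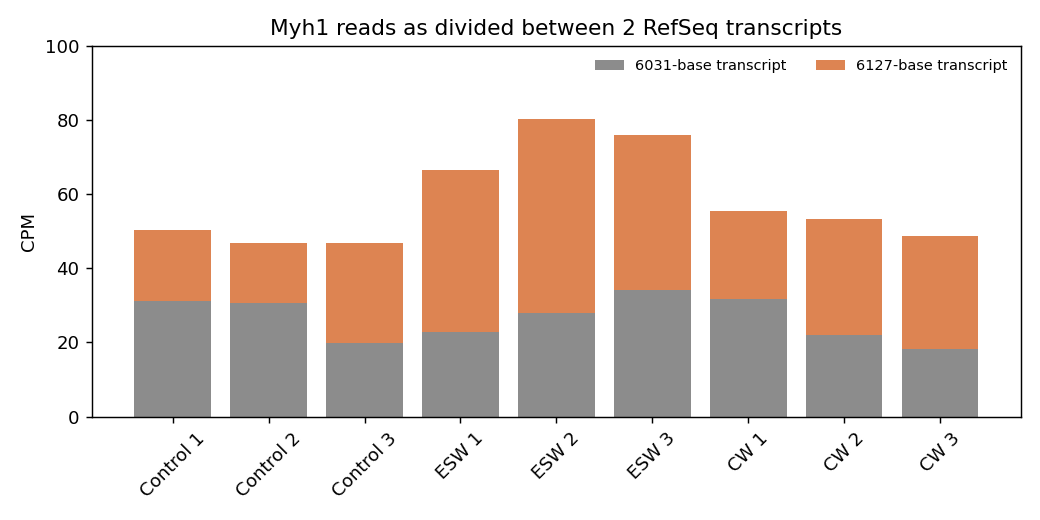
CPM of the 2 Myh1 transcripts in each of the 9 libraries. The 6127-base transcript lies between 41.9 and 52.3 CPM in ESW and between 16.4 and 31.3 elsewhere, while the 6031-base transcript spans 18.1 to 34.2 with no separation of groups.

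The cardiac chains Myh6 and Myh7, the second of which is also the slow skeletal chain, were barely detected in this heart-derived line. Myh7 had 18, 17 and 29 reads in Control, 12, 15 and 23 in ESW, and 17, 2 and 5 in CW. The ranges overlapped, with the lowest 2 values in CW. Myh6 had 0, 6 and 0 reads in Control, 0, 0 and 1 in ESW, and 19, 2 and 2 in CW, so 19 of its 30 reads came from CW replicate 1. That library also held 17 of the 24 Myh7 reads in CW. The log2 difference of Myh7 was -0.18 (SE 0.52) for ESW against Control and 0.83 (SE 0.59) for ESW against CW, and the second became 2.20 without CW replicate 1. Myh6 was too low to be tested. Outside the 10 members, Myh7b, a slow-type sarcomeric chain, was the only other class II gene high enough to be tested, at 0.574 ± 0.0781 TPM in Control, 0.622 ± 0.0811 in ESW and 0.832 ± 0.0444 in CW, and it passed in no comparison (edgeR's adjusted p = 0.688 for ESW against Control, 0.0687 for ESW over CW and 0.149 between CW and Control).

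Myh11, the smooth muscle chain, read 39.7, 36.9 and 39.1 CPM in Control, 40.1, 44.1 and 45.8 CPM in ESW, and 39.2, 36.1 and 35.8 CPM in CW. The lowest ESW library was just above the highest Control library, and ESW did not overlap Control or CW. Relative to the plain library total this order was not kept. ESW replicate 1 had 1424 of 36384210 reads and Control replicate 1 had 1558 of 39329004. In TPM the lowest ESW value was 7.96 and the highest Control value 7.64. The log2 difference of Myh11 was 0.17 (SE 0.06) for ESW over Control and 0.23 (SE 0.06) for ESW over CW. A single 6555-base transcript held 93.9% to 100% of its reads. On the TPM scale Myh1 was 1.28 to 1.35 times Myh11 in Control, 1.75 to 1.92 times in ESW and 1.45 to 1.56 times in CW. The groups did not overlap in this ratio, although CW and Control overlapped in each gene alone. The ratio holds Myh1, by which the family was chosen, and separation in other gene pairs was not examined, so it is a description.

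The non-muscle chains varied little. Myh9, the IIA chain, read 5764, 5279 and 5779 CPM in Control, 5777, 6140 and 6240 CPM in ESW, and 5842, 5356 and 5563 CPM in CW, and ESW replicate 1 fell within the range of the other groups. Myh10, the IIB chain, read 414, 392 and 414 CPM in Control, 417, 459 and 444 CPM in ESW, and 437, 404 and 412 CPM in CW, so ESW lay above Control but overlapped CW. Relative to the plain library total, Myh10 in ESW did not lie above Control. ESW replicate 1 had 14834 of 36384210 reads and Control replicate 1 had 16252 of 39329004. In TPM the lowest ESW value of Myh10 was 78.2 and the highest Control value 76.8. The log2 differences of Myh9 and Myh10 for ESW over Control were both 0.11 (SE 0.04), and over CW they were 0.12 (SE 0.04) and 0.08 (SE 0.04). The balance of the 2 chains held throughout, with a Myh9 to Myh10 ratio of TPM between 12.9 and 13.8 in the 9 libraries. Within Myh10 a 7632-base transcript held 72.6% to 85.6% of the reads and a 7427-base transcript 12.9% to 26.5%, and the latter spanned 64.0 to 118 CPM in ESW against 50.6 to 81.8 in Control and 71.0 to 77.7 in CW.

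CW against Control asked whether the control water itself went with a change, and none of the 7 tested members passed. By edgeR's quasi-likelihood test with Benjamini-Hochberg adjustment over 14706 genes, 26 genes (0.177%) were called at an adjusted p below 0.05 and 1452 had an unadjusted p below 0.05. The count of 26 ran from 5 to 51 when libraries were left out in turn. None of the 7 members was among either, limma-voom also called none of the 7, and DESeq2's Wald test called none of the 4 (Myh1, Myh9, Myh10 and Myh11) to which it gave an adjusted p. The log2 difference of Myh1 was 0.13 (95% interval -0.01 to 0.26, adjusted p = 0.536, edgeR), an interval that holds values up to 0.26. For the non-muscle chains the intervals were narrow: -0.09 to 0.08 for Myh9 (adjusted p = 0.982, edgeR) and -0.05 to 0.13 for Myh10 (adjusted p = 0.846, edgeR). Myh11 lay at -0.06 (interval -0.18 to 0.06, adjusted p = 0.799, edgeR). For the low genes the intervals were wide, from -0.40 to 0.93 for Myh2, -0.14 to 0.98 for Myh3 and -2.22 to 0.20 for Myh7, and those of Myh2 and Myh3 include a difference of the size that Myh1 showed in ESW. No member's CW and Control libraries separated, against 14.7% of all tested genes.

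In the comparisons that led to the choice of the family, the same test called 1183 of 14706 genes (8.04%) for ESW against Control, with Myh1 as 1 of 7 members, and 1197 genes (8.14%) for ESW against CW, with Myh1 and Myh11 as 2 of 7. The CPM ranges of ESW and Control did not overlap for Myh1, Myh2, Myh3, Myh10 and Myh11, where 25.6% of all genes showed a separation, and those of ESW and CW did not overlap for Myh1, Myh2 and Myh11, where 28.3% did. Without ESW replicate 3 the counts of called genes were 394 and 314, and Myh11 was not among those called for ESW against CW without ESW replicate 2 or 3 or CW replicate 2 or 3. These counts describe how the members stood and are read no further, since the rule used both comparisons and the 2 share the ESW libraries.

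**Figure D4:**
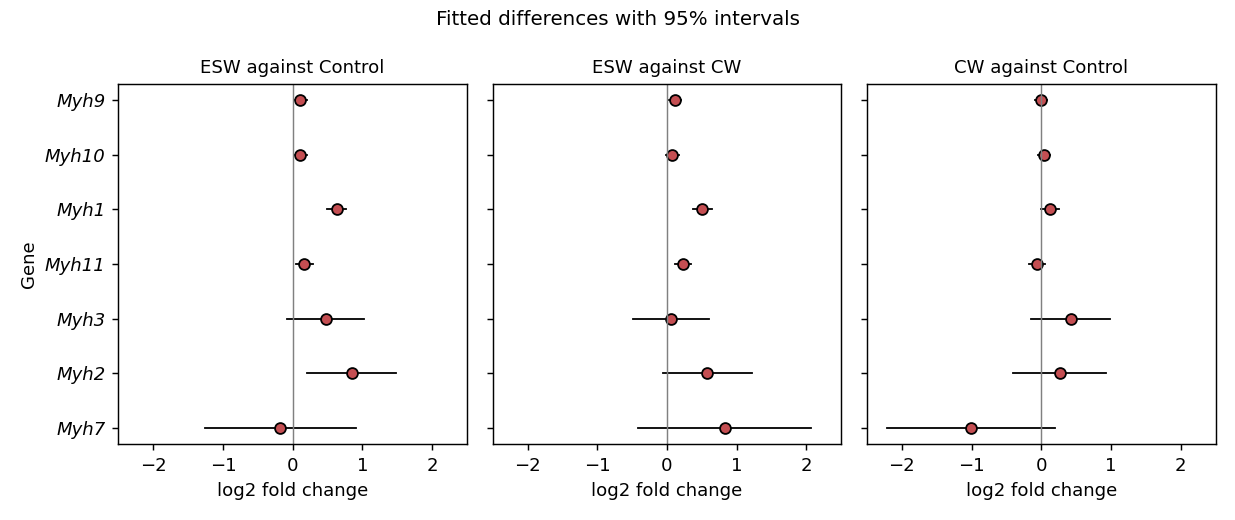
Fitted log2 differences of the 7 tested members in the 3 comparisons, with 95% intervals from the fit across all genes. Myh1 lies at 0.63 and 0.51 in the comparisons with ESW and at 0.13 for CW against Control, and the intervals of Myh2, Myh3 and Myh7 are several times wider than those of Myh9, Myh10 and Myh11.

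The light chains that pair with these heavy chains followed the same division between non-muscle and sarcomeric genes. Of the 4 measured smooth muscle and non-muscle light chain genes, 1 rose over CW by edgeR's test, which called 8.14% of all genes there. None passed over Control, where it called 8.04% of all genes. Over Control 2 of the 4 had an unadjusted p below 0.05 (edgeR), limma-voom called 1 and DESeq2 2. The 4 genes summed to 10513 to 11096 TPM over the 9 libraries, led by the essential chain Myl6 at 6549 ± 223 TPM in Control. In ESW Myl6 stood lower, at 6334 ± 265 TPM. Its log2 difference was -0.12 against Control (adjusted p = 0.0789, edgeR) and -0.06 against CW (adjusted p = 0.432, edgeR). The regulatory chain Myl9 stood at 1987 ± 70.3 TPM in Control, 2241 ± 21.0 in ESW and 2014 ± 78.4 in CW; it rose in ESW over CW (log2 0.14, adjusted p = 0.0242, edgeR) and was 0.11 over Control (adjusted p = 0.0639, edgeR). The call was lost without ESW replicate 2 or 3 or CW replicate 2 or 3. The 7 skeletal and cardiac light chain genes summed to 10.2 to 17.2 TPM. Of these only Myl4, the embryonic and atrial essential chain, and Myl11, the fast skeletal regulatory chain, were tested, and neither passed: Myl11 was 6.07 ± 1.29 TPM in Control and 4.91 ± 0.654 in ESW (log2 -0.46, adjusted p = 0.297, edgeR). Myl1, the fast skeletal essential chain, was listed at 0 in all 3 Control libraries.

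Counts of sarcomere genes are set beside the share of all genes called, 8.04% over Control and 8.14% over CW. Of 7 tested thick filament partners 1 rose and none fell in ESW over Control, with a median log2 difference of -0.04 against -0.01 for all genes. That gene was Ttn, the giant spring of the sarcomere, at 0.00694 ± 0.00227 TPM in Control and 0.0163 ± 0.00176 in ESW (log2 1.20, adjusted p = 0.0294, edgeR); CW stood at 0.0174 ± 0.00537 TPM, and the call was lost without any 1 of 5 libraries (Control replicates 1 and 3 and each ESW replicate), and the difference was 0.12 on log2(TPM + 0.1) and 0.01 on log2(TPM + 1). Of 12 tested thin filament and Z-disc genes none passed edgeR's test for ESW against Control (median -0.03; 4 at an unadjusted p below 0.05, and none called by limma-voom or DESeq2), and 1 rose over CW (median -0.05 against -0.00). This was the skeletal actin gene Acta1 at 33.4 ± 2.56 TPM in ESW and 28.9 ± 1.26 in CW (log2 0.23, adjusted p = 0.0468, edgeR), a call that was not made by DESeq2's Wald test or limma-voom and was kept only without Control replicate 1 or ESW replicate 3 when libraries were left out in turn. The cardiac troponin gene Tnnt2, at 61.1 ± 2.15 TPM in Control and 70.9 ± 6.20 in ESW, did not pass (log2 0.11, adjusted p = 0.305, edgeR). The highest of the thin filament and Z-disc genes was the troponin gene Tnnc1, at 225 ± 19.2 TPM in Control and 216 ± 5.02 in ESW. It did not pass either (log2 -0.16, adjusted p = 0.127, edgeR). Ckm, the muscle creatine kinase gene that marks differentiated fibres, was at 0.0458 ± 0.0233 TPM in Control and 0.0715 ± 0.0522 in CW, with a mean of 0.0933 TPM in ESW, and was too low to test. Of the 4 tested markers of differentiated skeletal muscle, edgeR called 0 over Control (1 at an unadjusted p below 0.05; limma-voom and DESeq2 called 0) and 1, Acta1, over CW.

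Of 19 tested myogenic and fibre type regulators, 1 rose over Control (median -0.00 against -0.01 for all genes) and 1 over CW (median 0.06 against -0.00). In these comparisons 8.04% and 8.14% of all genes were called. Nfatc4, a calcineurin-dependent factor, rose by 0.21 on the log2 scale over Control (adjusted p = 0.0185, edgeR) and was 0.17 over CW (adjusted p = 0.0586, edgeR). Vgll3, a cofactor of TEAD factors, was 0.06 over Control and rose by 0.18 over CW (adjusted p = 0.0227, edgeR). The call of Nfatc4 was lost without Control replicate 1 or 3 or ESW replicate 2 or 3, and that of Vgll3 without ESW replicate 3 or CW replicate 2. Myod1 was 10.2 ± 1.21 TPM in ESW and 8.64 ± 0.480 in Control (log2 0.31, adjusted p = 0.0581, edgeR). Of the myosin chaperones Unc45a, the general UNC-45 chaperone that folds myosin heads, was the 1 of 8 that passed edgeR's test, by 0.13 over Control (adjusted p = 0.0393, edgeR) and 0.15 over CW (adjusted p = 0.0232, edgeR). Without ESW replicate 2 or 3 or CW replicate 2 or 3 both calls were lost, and without Control replicate 2 or 3 the first. DESeq2's Wald test called 2 of the 6 chaperones to which it gave an adjusted p over Control. By edgeR 4 of the 8 had an unadjusted p below 0.05 there. Cct2 (log2 -0.10), Hsp90aa1 (-0.09) and Stip1 (-0.08) lay lower in ESW than in Control and did not pass edgeR's test. Unc45b, the muscle paralogue of Unc45a, was at 0.173 ± 0.0928 TPM in Control and did not pass.

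Among genes that act on non-muscle and smooth muscle myosin, S100a4 fell. This calcium-binding protein, which binds the tail of the Myh9 product and takes its filaments apart, stood at 3837 ± 447 TPM in Control, 2993 ± 57.8 in ESW and 3813 ± 403 in CW. Its log2 difference was -0.42 for ESW against Control (adjusted p = 5.1e-04, edgeR) and -0.32 against CW (adjusted p = 0.00513, edgeR), and it was the 1 of 14 tested filament regulators that edgeR called in either comparison. DESeq2's Wald test called 2 of the 14 in both comparisons, and limma-voom 1 over Control and 2 over CW. Of all genes, edgeR called 8.04% over Control and 8.14% over CW. The kinase gene Dapk3 rose over Control (log2 0.16, adjusted p = 0.0444, edgeR), but its difference was 0.04 with average transcript length offsets and 0.05 on both log2(TPM) scales. Over CW, Mylk, the light chain kinase gene, rose by 0.15 (adjusted p = 0.0353, edgeR) and the citron kinase gene Cit fell by 0.15 on the log2 scale (adjusted p = 0.0433, edgeR). With the offsets Cit stood at -0.06. When libraries were left out in turn S100a4 kept both calls, Dapk3 kept its call only without CW replicate 1, Cit only without Control replicate 1 or 3, and Mylk lost its call without ESW replicate 2 or 3 or CW replicate 2 or 3. In CW against Control edgeR's test called 0 of the 91 tested genes of all the lists that are no member, with 14 at an unadjusted p below 0.05; limma-voom called 0 and DESeq2's Wald test called 2 of the 51 to which it gave an adjusted p.

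Some markers of other mesenchymal cells were called in ESW, and their part in the values of Myh1 and Myh11 was not tested. Of all genes, edgeR called 8.04% for ESW against Control and 8.14% against CW. Of the 4 smooth muscle markers other than Myh11, Smtn rose over Control (log2 0.18, adjusted p = 0.0113, edgeR), and Smtn and Cnn1 rose over CW, with Cnn1 at 572 ± 12.5 TPM in ESW and 507 ± 25.2 in CW (log2 0.17, adjusted p = 0.00864, edgeR). The call of Cnn1 was lost without ESW replicate 3 or CW replicate 2, and that of Smtn over Control without Control replicate 2 or ESW replicate 3 and over CW without ESW replicate 2 or 3 or CW replicate 1 or 2. Des, on the same list, was -0.34 against Control and -0.16 against CW and did not pass. The list with Myh11 summed to 735 to 782 TPM in Control, 789 to 840 in ESW and 704 to 775 in CW. Of 5 fibroblast markers 2 rose over Control and 3 over CW. The collagen gene Col1a1 was at 9283 ± 567 TPM in Control and 11230 ± 676 in ESW (log2 0.29, adjusted p = 9.5e-05, edgeR). Over CW it rose by 0.24 (adjusted p = 8.3e-04, edgeR). Col1a2 rose by 0.22 over Control (adjusted p = 8.1e-04, edgeR) and 0.21 over CW (adjusted p = 0.00167, edgeR). Thy1 rose over CW only (log2 0.14, adjusted p = 0.0355, edgeR), a call lost without ESW replicate 2 or 3 or CW replicate 1 or 2. Pdgfra was at 0.0843 ± 0.0400 TPM in Control. The fibroblast markers Pdgfra (-0.81 against Control, 0.36 against CW) and Dcn (0.05 and -0.13) did not pass. That list summed to 19965 to 22142 TPM in Control, 23205 to 25436 in ESW and 19683 to 21229 in CW. Of 4 endothelial and 4 blood cell markers 1 each was high enough to be tested (Tek and Cd68), and neither passed. Of the 91 tested list genes that are no member, edgeR called 8 for ESW against Control and 12 against CW. On the log2(TPM) scales tried as alternatives all of these calls were lost, and with average transcript length offsets 4 and 6 were. On log2(TPM + 0.1) Col1a1 stood at 0.27 and S100a4 at -0.35 against Control.

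Over the 9 libraries the members also moved with each other to different degrees. On log2 CPM, Pearson's r was 0.93 for Myh9 with Myh11, 0.92 for Myh9 with Myh10 and 0.91 for Myh2 with Myh9. It was 0.85 for Myh1 with Myh2 and also with Myh11, 0.59 for Myh1 with Myh3 and -0.05 for Myh7 with Myh3. The values pool the 3 groups, so differences between groups enter them. The genes with the pattern most like Myh1, among 11326 compared, were Adnp (r = 0.992), Hspb7 (0.988), Abhd14b (0.988), Ube3b (0.987) and Ccdc102a (0.983). Hspb7, a small heat shock protein of heart and skeletal muscle, averaged 77.6 ± 3.79 CPM in ESW against 62.6 ± 0.991 in Control and 63.6 ± 1.34 in CW (SD, n = 3). These values come from the same 9 libraries and library totals and are given as a description.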

How the data were processed

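Total RNA from 9 H9c2(2-1) libraries, 3 each of Control, ESW and CW, was sequenced, and 1 quantification table per library was deposited. The authors ran Salmon 1.10.3, per the submitters' processing notes, which also name DESeq2; the genome build, annotation and bias options are not given in the sources used here. Per the file headers, the deposited tables hold an estimated count (the expected number of reads), a TPM value and the lengths of each of 114122 transcripts. All transcript identifiers matched RefSeq's gene table on GRCr8, and estimated counts and TPM were summed to 36856 genes; Myl6b and Myh16 had no entry, and Mylpf is listed as Myl11. Library totals of 26748673 to 48574618 set the precision.

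Summed counts were rounded to whole numbers and fitted in edgeR 4.0.16 (R 4.3.3), with TMM normalization, edgeR's low-count filter (14706 genes kept) and 1 quasi-likelihood model over all 9 libraries (6 residual degrees of freedom), Benjamini-Hochberg adjusted over all genes at 0.05. The standard error is the log2 difference divided by the square root of F, and 95% intervals use the fit's degrees of freedom. The fit was tested on simulated data. Alternatives used DESeq2 1.42.0, limma 3.58.1 (limma-voom, and limma-trend on log2 of TPM plus 0.1 or 1), other filters, scalings and samples, and a replicate block. CPM is the estimated count relative to the library's total over the genes kept, adjusted by its TMM factor. Members and gene lists were chosen with earlier results of these data known. All members are reported. List genes that passed edgeR's test are named, with some that did not pass. The genes most like Myh1 by Pearson's r of log2 CPM are named in order. Promoter windows come from RefSeq's promoter table, which was matched for 9 of the 10 members. Protein sequences were not used here. The counts of the gene list from which Dapk3, Mylk and Cit are named are not reported here.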

Additional observations from a re-analysis of the deposited data

How the results depend on the processing

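The 47 values behind the text were recomputed under up to 19 alternatives each, giving 853 values, of which 679 were graded the same. For a difference this means the same direction and side of the threshold. For a count of called genes it means a value near the main count. The count of genes called for ESW against Control, 1183 (700 higher, 483 lower), was 440 with average transcript length offsets, 149 on log2(TPM + 0.1), 86 on log2(TPM + 1), and 394 to 1544 when a library was left out (534 without Control replicate 2, 590 without Control replicate 3, 394 without ESW replicate 3). For ESW against CW the count of 1197 was 18 on log2(TPM + 0.1), 0 on log2(TPM + 1) by limma-trend, with 2776 genes at an unadjusted p below 0.05, and 314 to 1486 with a library left out (for ESW replicates 2 and 3, 571 and 314; for CW replicates 2 and 3, 407 and 474). For CW against Control the count of 26 (4 higher, 22 lower) was 273 with no filter on low counts, 84 with DESeq2's Wald test, 16 with only the 2 groups compared, 2 with the offsets (2 higher, 0 lower), 0 on log2(TPM + 0.1) and 0 on log2(TPM + 1) by limma-trend, with 907 and 933 genes at an unadjusted p below 0.05, and 5 to 51 with a library left out (17 without Control replicate 1, 13 without Control replicate 2, 51 without Control replicate 3, 14 without CW replicate 1, 11 without CW replicate 2, 5 without CW replicate 3). The cause was not tested.

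The Myh1 difference ran from 0.57 to 0.71 for ESW against Control and from 0.45 to 0.58 for ESW against CW, where neither TPM fit called it or Myh11; the family was chosen on these Myh1 values, so their range is a description and no support. Without ESW replicate 3 the Myh3 difference of ESW against CW turned to -0.11, and without CW replicate 3 to -0.18, in a range of -0.18 to 0.27 with a library left out. Myh9 in CW against Control turned from -0.01 to 0.02 without Control replicate 1, Control replicate 3 or CW replicate 2, in a range of -0.05 to 0.02. The labels number replicates 1 to 3 in each group, but same-numbered libraries did not deviate together (correlations from -0.118 to 0.04), so the numbers were not taken as pairs. With a replicate block the counts were 971, 949 and 25, and Myh1 stood at 0.63, 0.50 and 0.12. Some alternatives called further members for ESW against Control. DESeq2's Wald test called Myh10 (adjusted p = 0.0439). edgeR called Myh9 with no filter on low counts (adjusted p = 0.023) and Myh11 with the offsets (adjusted p = 0.0394). Without ESW replicate 1 it called Myh10 and Myh11. Against CW, Myh9 was called in 3 alternatives and Myh7 in 1. These calls too are a description and no support. Myh4, Myh6 and Myh8 had too few reads to be tested, and Myh2, Myh3 and Myh7 had at most 72 reads in a library.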
